A study of Mus musculus with 8 samples.

Results

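The genes of the DNA methylation machinery described here are *Dnmt1*, *Dnmt3a*, *Dnmt3b*, *Dnmt3l* and *Uhrf1*, which make up 5 of the 21951 protein-coding genes of GENCODE release M21 on the mouse assembly mm10. A transcription start cluster was counted at a gene when it lay on the same strand and its dominant transcription start site (TSS), the single base with the most 5′ ends, fell between 500 bp upstream of the gene start and the gene end. By this rule 19 of 32857 clusters belonged to the 5 genes in wild-type cells, 18 of 33005 in the first knockout clone and 19 of 32870 in the second.

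The study asked whether transcription starts at the wrong places inside genes when *Pwwp2a* and *Pwwp2b* are lost. Their proteins bind histone H3 trimethylated at lysine 36, a mark of transcribed gene bodies, together with histone deacetylases. Starts were mapped by CAGE-seq, which captures the cap of RNA and reads the first bases of the cDNA, with nuclear RNA as input. The compared lines were E14, a wild-type mouse embryonic stem cell (mESC) line (3 libraries), and the *Pwwp2a/b* double knockout (DKO) clones A1 (2 libraries) and C7 (3 libraries).

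All 3 lines were grown on gelatine in serum with the cytokine LIF, and the paper's methods name no feeder cells. Each knockout line is 1 clone, so an effect of the deletion and a feature of that clone cannot be told apart. The libraries of a line had been merged before clusters were called, and every cluster in the deposited set carries a score of 0. The values are therefore positions, with 1 set per line. They hold no level of transcription, no depth and no spread between replicates, so no test between lines could be made and all comparisons are descriptions. Of the clusters found in all 3 lines, 98.6% had the same outer ends to the base in each line, as did all 18 such clusters of the 5 genes. The authors describe joining nearby clusters into consensus peaks. Within shared ends, the base chosen as dominant TSS could differ, but only within the width of the cluster. The same holds for the interquantile region (the stretch between quantiles 0.1 and 0.9 of the signal). How far the presence of a cluster in every line follows from shared ends was not tested.

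In mammals a methyl group on the cytosine of CpG dinucleotides is set by DNMT3A and DNMT3B, the de novo methyltransferases, and copied after replication by DNMT1, the maintenance methyltransferase. UHRF1 recognises the hemimethylated DNA left behind the replication fork and brings DNMT1 to it, while DNMT3L has no catalytic activity of its own and stimulates the de novo enzymes. Several of these genes use more than 1 promoter: an oocyte promoter of *Dnmt1* gives a protein that lacks the N-terminal end, and an internal promoter of *Dnmt3a* gives the short isoform DNMT3A2, the main form in mESCs. *Dnmt3l* likewise has different promoters in germ cells and in mESCs.

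The sequences around the dominant TSS of 6 promoter clusters are shown because they place the observed starts against the annotated alternative promoters. Each runs 5′ to 3′ on the strand of the gene, with 40 bases before and 20 after the dominant TSS, from RefSeq promoter windows (GRCm38.p6) and GENCODE transcripts. Capitals mark the bases at −1 and +1, the initiator.
Dnmt1, somatic promoter, chr9:20952826-20952886, minus strand: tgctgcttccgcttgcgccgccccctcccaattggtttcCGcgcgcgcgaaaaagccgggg
Dnmt3a, most upstream cluster, chr12:3806524-3806584, plus strand: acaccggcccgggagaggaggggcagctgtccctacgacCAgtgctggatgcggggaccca
Dnmt3a, promoter of the short isoform, chr12:3891740-3891800, plus strand: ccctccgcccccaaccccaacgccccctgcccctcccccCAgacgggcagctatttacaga
Dnmt3b, chr2:153649414-153649474, plus strand: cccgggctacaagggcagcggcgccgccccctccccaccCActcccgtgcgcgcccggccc
Dnmt3l, chr10:78049802-78049862, plus strand: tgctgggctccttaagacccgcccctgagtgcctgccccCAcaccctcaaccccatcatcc
Uhrf1, upstream promoter, chr17:56303365-56303425, plus strand: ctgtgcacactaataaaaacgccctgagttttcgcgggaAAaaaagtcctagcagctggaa

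The 19 clusters of E14 fell into 13 within 500 bp of an annotated transcript start, called promoter clusters, 5 in exons and 1 in an intron. C7 had the same numbers, and A1 had 12, 5 and 1. The annotation gives the 5 genes 44 distinct transcript starts, of which 16 had a dominant TSS within 100 bp in each line. At *Dnmt3b* this was 4 of 6 starts and at *Uhrf1* 5 of 7, against 1 of 7 at *Dnmt1*, 4 of 18 at *Dnmt3a* and 2 of 6 at *Dnmt3l*. Most of the annotated starts of the last 3 genes thus had no dominant TSS within 100 bp. At *Dnmt1*, however, the starts of Dnmt1-201, Dnmt1-203 and Dnmt1-207 lay 133, 223 and 241 bp from a dominant TSS, inside the 500 bp promoter window.

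**Figure D1:**
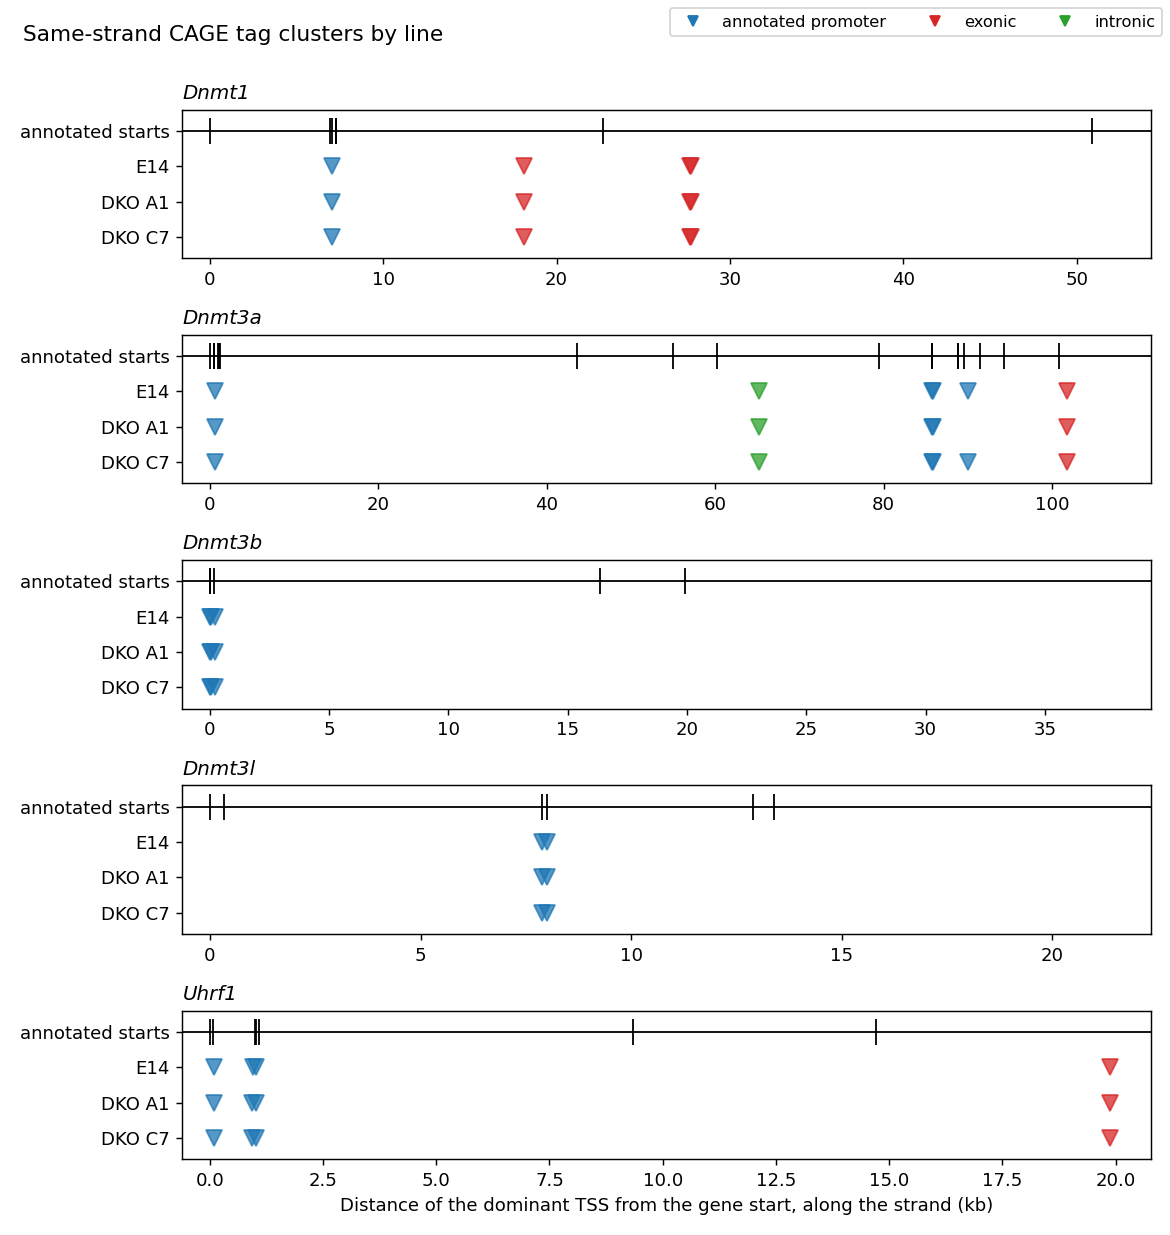
Clusters along each gene, with the distance of the dominant TSS from the gene start in kb on the horizontal axis and 1 row per line; triangles are clusters, coloured as annotated promoter, exonic or intronic, and bars in the top row are annotated transcript starts. The rows of the 3 lines match apart from 1 cluster of Dnmt3a, a promoter cluster in E14 and C7, that A1 lacked; Dnmt3b and Dnmt3l had promoter clusters only.

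*Dnmt1* lies on the minus strand (chr9:20907209-20959888). Its single promoter cluster (chr9:20952790-20952894) had the dominant TSS at 20952846 in E14, A1 and C7 alike. That base lies in the first exon of the full-length transcript Dnmt1-201 (1620 codons), at position 134 of 272, and 1 bp upstream of the short noncoding transcript Dnmt1-205. No cluster was present in any line at the most upstream start, that of Dnmt1-202 (1501 codons): the nearest dominant TSS was 7042 bp downstream of it. The cluster was broad, with an interquantile width of 52 bp in all 3 lines, and 9.56% of all promoter clusters in E14 were wider.

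Inside *Dnmt1* there were 3 exonic clusters, present in every line. The first (chr9:20941793-20941794) is 2 bp wide and lies in exon 3 of 39, at codon 44 of Dnmt1-201, in what is 5′ UTR for Dnmt1-202, Dnmt1-203 and Dnmt1-207. The other two lie in exon 10 of 39, which is 85 bp long. One of them (chr9:20932173-20932187) is 15 bp wide with its dominant TSS at codon 252 in E14 and A1 and 14 bp further downstream, at codon 257, in C7. The last (chr9:20932122-20932131) is 10 bp wide with its dominant TSS at codon 271 in each line. These 2 clusters are wider than the median exonic or intronic cluster, which measured 3 bp in E14, and sit 56 bp apart in E14 by their dominant TSSs. On the opposite strand, a cluster of 6 bp (chr9:20918537-20918542) lay within the span of *Dnmt1* in all lines, with no annotated start on that strand within 500 bp.

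*Uhrf1* (chr17:56303321-56323486, plus strand) had 3 promoter clusters in each line, in 2 groups 864 bp apart by their dominant TSSs in E14. The upstream cluster (chr17:56303316-56303455) covered the starts of Uhrf1-201 and Uhrf1-203, and its dominant TSS at 56303405, 5 bp after the start of Uhrf1-203, was the same in all lines. It was the broadest cluster of the 5 genes, with an interquantile width of 96 bp in E14, 78 bp in A1 and 88 bp in C7. Only 0.81% of E14 promoter clusters were wider. The region was narrower in both clones, and its upstream end lay 26 bp further downstream in A1 and 15 bp in C7 than in E14, while its downstream end lay 8 and 7 bp further downstream.

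The downstream pair of *Uhrf1* clusters stood next to the starts of Uhrf1-202 and Uhrf1-204. In the first of them (chr17:56304236-56304294) E14 had the dominant TSS at 56304269, and both clones had it 11 bp upstream, at 56304258. Its interquantile width was 37 bp in E14, 33 bp in A1 and 37 bp in C7. The bases at −1 and +1 were CC in E14 and CA in the clones, as the following pair of sequences shows, again with −1 and +1 in capitals.
Uhrf1, dominant TSS in E14, chr17:56304229-56304289, plus strand: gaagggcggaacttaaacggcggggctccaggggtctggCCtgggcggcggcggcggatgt
Uhrf1, dominant TSS in A1 and C7, chr17:56304218-56304278, plus strand: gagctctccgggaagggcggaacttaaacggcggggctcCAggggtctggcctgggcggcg
The second cluster of the pair (chr17:56304316-56304350) was narrow, 6 bp in each line, and its dominant TSS at 56304348 was the annotated start of Uhrf1-204 to the base.

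A cluster on the opposite strand (chr17:56304078-56304133) stood between the 2 groups of *Uhrf1* promoter clusters in all lines. Its dominant TSS at 56304110 was 159 bp from the nearest *Uhrf1* dominant TSS in E14 and 148 bp in the clones, and no annotated start on that strand lay within 500 bp. At the other end of the gene, an exonic cluster (chr17:56323195-56323210) lay in the 3′ UTR, at position 841 of the 1131 bp of exon 17 of 17. Its dominant TSS was at 56323196 throughout, with an interquantile width of 3 bp in E14 and C7 and 16 bp in A1.

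*Dnmt3a* (chr12:3806007-3914443, plus strand) had the most clusters of the 5 genes, 6 in E14 and C7 and 5 in A1. Among the 11168 coding genes with a promoter cluster in E14, 6.52% had as many or more, and the median was 1. The dominant TSS of the most upstream cluster (chr12:3806548-3806564) was at 3806564 in each line, 37 bp after the start of Dnmt3a-206 and 466 bp before that of Dnmt3a-201, which encodes the long isoform (908 codons). It lies in the first exon of Dnmt3a-206 (193 codons) and of Dnmt3a-202, a transcript with a retained intron, and no start of a transcript with 908 codons had a dominant TSS within 100 bp in any line. Its interquantile width was 17 bp.

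Next to the start of the short isoform, clusters 3 and 4 of the gene stood 44 bp apart. Cluster 3 (chr12:3891780-3891796) had its dominant TSS at 3891780, 36 bp after the start of Dnmt3a-203, and cluster 4 (chr12:3891817-3891824) at 3891824. Dnmt3a-203 and Dnmt3a-205 have 689 codons, against 908 in the long isoform. The widths were 17 and 7 bp, and neither the position nor the width of the 2 clusters differed between lines. Starts next to the short-isoform promoter were thus present in each line, and whether the most upstream cluster gives rise to the long isoform cannot be read from start positions.

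Cluster 5 of *Dnmt3a* (chr12:3896028-3896029) was the only cluster of the 5 genes not present in every line. It is 2 bp wide and was found in E14, with the dominant TSS at 3896028, and in C7, at 3896029, but not in A1. It lies in exon 8 of 23 of Dnmt3a-201, at codon 294 in E14, and counts as a promoter cluster because Dnmt3a-207, an annotated transcript of 183 codons, starts 435 bp upstream; within a 100 bp window it would be exonic. Over the whole set, 2.63% of the 33324 joined clusters were not found in all 3 lines, beside 1 of 19 here.

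The remaining clusters of *Dnmt3a* were internal. Cluster 2 (chr12:3871228-3871230) lies in intron 4 of 22 of Dnmt3a-201, is 3 bp wide, with the dominant TSS at 3871230 in E14 and at 3871228 in both clones. Cluster 6 (chr12:3907750-3907760) lies in the 3′ UTR, in exon 23 of 23, is 10 bp wide between quantiles and had its dominant TSS at 3907759 in each line. No cluster lay on the opposite strand of the gene in any line.

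*Dnmt3b* (chr2:153649450-153687730, plus strand) encodes the de novo enzyme that is directed to gene bodies through its own PWWP domain. The dominant TSSs of its 3 clusters all lay in the first exon, and no cluster was exonic or intronic by the definition used here. The first (chr2:153649447-153649455) had its dominant TSS at 153649454 in each line, the annotated start of Dnmt3b-201 to the base, with a width of 5 bp. The second (chr2:153649480-153649512) was 45 bp further downstream, at 153649499, with a width of 22 bp. The third (chr2:153649654-153649670) was 171 bp beyond that, at 153649670 in E14 and C7 and at 153649654, 16 bp upstream, in A1, with a width of 17 bp throughout. At the E14 position the bases at −1 and +1 were CA and at the A1 position AG.

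*Dnmt3l* (chr10:78041947-78063622, plus strand) had 2 clusters, 108 bp apart. The dominant TSS of the first (chr10:78049839-78049864) was at 78049842 in all lines, the start of Dnmt3l-201 (421 codons) to the base, and was 3 bp wide in E14 and A1 and 15 bp in C7. The second (chr10:78049885-78049981) had its dominant TSS at 78049950, 9 bp before the start of Dnmt3l-208, and was 66 bp wide in each line, wider than 96.1% of promoter clusters in E14.

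The other annotated starts of *Dnmt3l* had no cluster in any line. The dominant TSS nearest to the upstream start of Dnmt3l-205, which has the same 421 codons, was 7555 bp away, and the nearest to the downstream starts shared by 3 transcripts of 126 codons was 5385 bp away. On the opposite strand, 4 clusters lay within the span of *Dnmt3l* in E14 and 3 in each clone. Of these, 3 in E14 and 2 in each clone lay within 100 bp of an annotated start of *Aire*, the neighbouring gene on that strand. The cluster found only in E14, at 78043663, was 1 bp wide. Over the whole set, 2.63% of joined clusters were not found in all 3 lines.

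**Figure D2:**
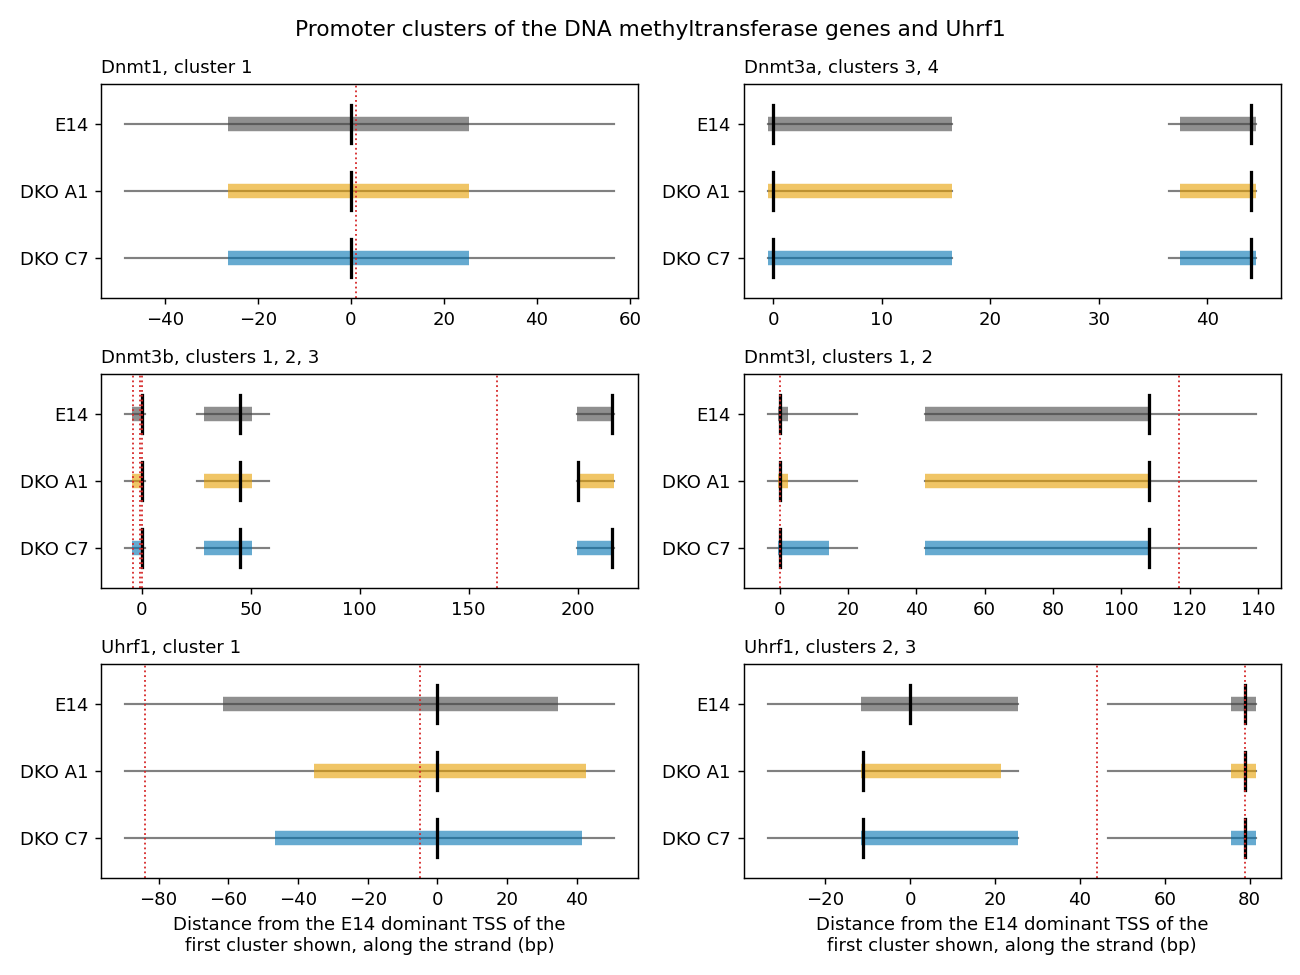
Promoter clusters at base resolution, with the distance in bp from the E14 dominant TSS of the first cluster of each panel on the horizontal axis; thin lines are whole clusters, thick bars interquantile regions, black ticks dominant TSSs and dotted red lines annotated starts. The dominant TSS of Uhrf1 cluster 2 lies 11 bp upstream in both clones, that of Dnmt3b cluster 3 lies 16 bp upstream in A1, and the interquantile region of Uhrf1 cluster 1 is 96 bp in E14, 78 bp in A1 and 88 bp in C7.

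Across the 5 genes, the number of clusters per gene ranged from 2 to 6 in E14. *Dnmt1* and *Uhrf1* each had 4, and 14% of the 11168 coding genes with a promoter cluster had as many or more. For the 3 clusters of *Dnmt3b* that share was 23.7% and for the 2 of *Dnmt3l* 47.4%. Exonic clusters were present at 3 of the 5 genes, *Dnmt1*, *Dnmt3a* and *Uhrf1*, and at 13.3% of those coding genes. An intronic cluster was present at 1 of 5, against 11.7%, and 2 or more promoter clusters at 4 of 5, against 38.4%. The number of clusters differed between lines at 1 of 5 genes, against 4.05%. With 5 genes these shares are a description, and longer or more highly transcribed genes were not matched.

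**Figure D3:**
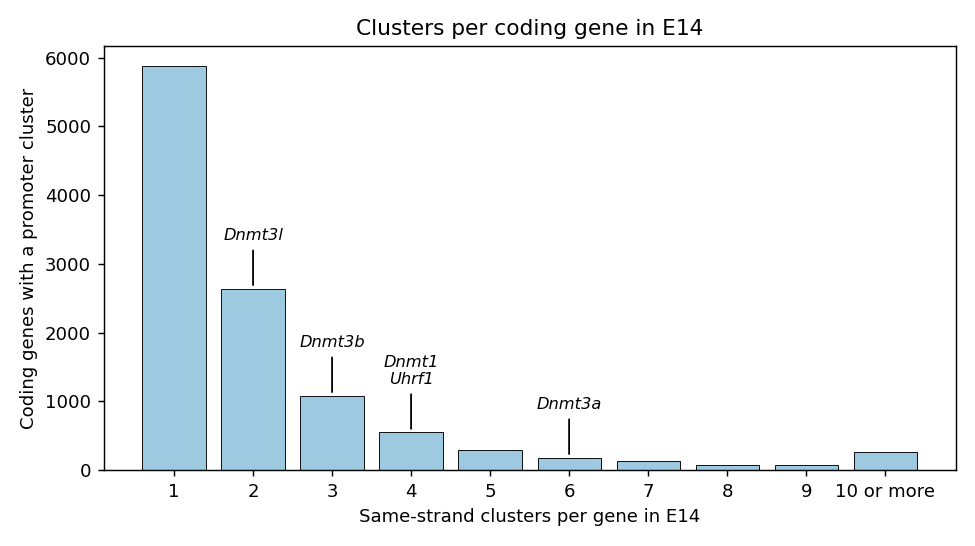
Number of coding genes (vertical axis) with each number of same-strand clusters in E14 (horizontal axis), over the 11168 coding genes with a promoter cluster; the last bar holds genes with 10 or more. The 5 genes are marked at 2 (Dnmt3l), 3 (Dnmt3b), 4 (Dnmt1 and Uhrf1) and 6 (Dnmt3a), all above the median of 1.

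The positions of the dominant TSSs were next compared between lines over the 18 clusters found in all 3. The dominant TSS differed from E14 in at least 1 clone at 4 of 18 clusters, beside 33.7% of the 32415 such clusters in the whole set. It differed in A1 at 3 of 18 (23.7% of all) and in C7 at 3 of 18 (21.1%). Both clones had the same new position at 2 of 18, cluster 2 of *Dnmt3a* and cluster 2 of *Uhrf1*, beside 8.47% of all clusters. With any difference counted, the share of 22.2% at the 5 genes was thus not above that of all clusters. Differences of at least 5 bp were found at 3 of 18, beside 18.1% of all clusters. Those of at least 10 bp were also found at 3 of 18, beside 12.1%. With so few clusters these shares are a description.

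Among promoter clusters alone, the dominant TSS differed in at least 1 clone at 2 of 12, *Dnmt3b* cluster 3 and *Uhrf1* cluster 2, against 30.4% of all promoter clusters. Among the internal clusters it differed at 2 of 6, *Dnmt1* cluster 3 and *Dnmt3a* cluster 2, against 38.8%. The differences measured 2, 11, 14 and 16 bp. Clusters 1, 3 and 4 of *Dnmt3a*, both of *Dnmt3l* and the promoter cluster of *Dnmt1* had one and the same dominant TSS in all 3 lines.

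The interquantile width differed from E14 in at least 1 clone at 4 of 18 clusters, beside 40.5% of all. They were cluster 1 of *Dnmt3l*, 12 bp wider in C7, and clusters 1, 2 and 4 of *Uhrf1*. Both clones differed in the same direction at 1 of 18, *Uhrf1* cluster 1, beside 16.4% of all. Among promoter clusters the count was 3 of 12, against 50.1%, and among internal clusters 1 of 6, against 22.7%. By clone it was 3 of 18 in A1 and 2 of 18 in C7, against 30.9% and 29.2%.

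The genes differed in the width of their widest promoter cluster, which positions alone do not show to be the most used. In E14 the widest promoter cluster of a gene measured 96 bp at *Uhrf1*, 66 bp at *Dnmt3l*, 52 bp at *Dnmt1*, 22 bp at *Dnmt3b* and 17 bp at *Dnmt3a*. The order was the same in A1 and C7, and with no replicate spread neighbours in it cannot be tested. The median promoter cluster measured 20 bp in E14 and 21 bp in each clone. *Dnmt3l*, *Dnmt3b* and *Uhrf1* each paired in E14 a broader cluster with one of 3 to 6 bp on the annotated start of a transcript.

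**Figure D4:**
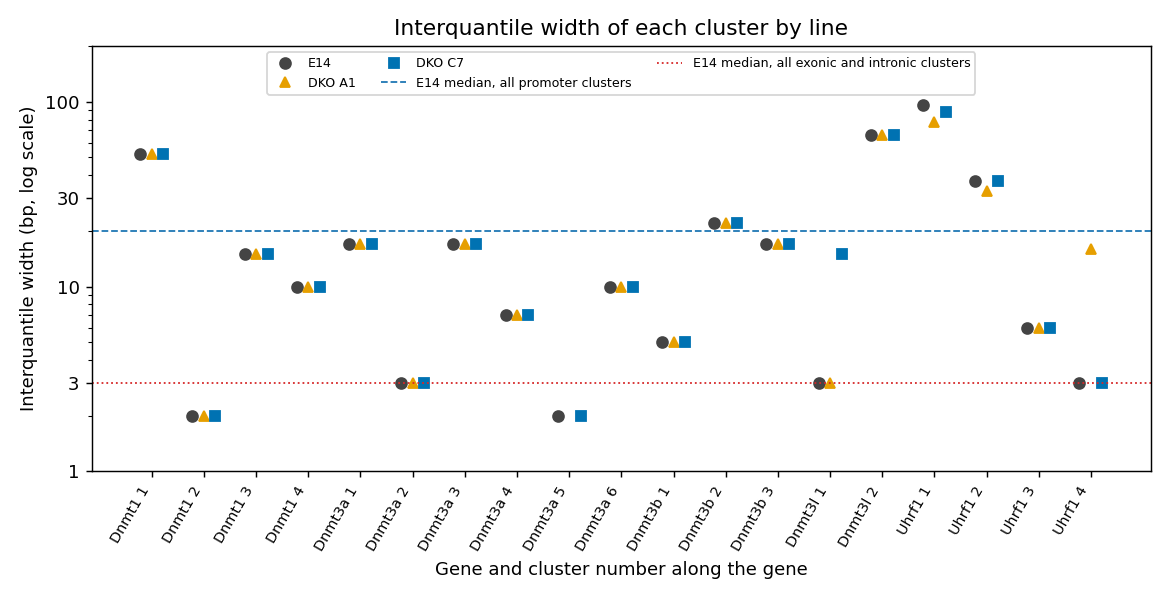
Interquantile width in bp on a log scale for each of the 19 clusters, numbered along its gene, with 1 symbol per line; dashed and dotted lines are the E14 medians of all promoter clusters (20 bp) and of all exonic and intronic clusters (3 bp). Symbols of the 3 lines coincide except at Dnmt3l cluster 1 and Uhrf1 clusters 1, 2 and 4, and Dnmt3a cluster 5 has no symbol for A1.

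Most mammalian initiation uses a pyrimidine at −1 and a purine at +1. This pair was found at 74.4% of the E14 promoter clusters whose bases could be read (17277 of 19872) and at 10.5% of exonic clusters (4245 of 4260 read). At the 5 genes it was found at 9 of the 12 promoter clusters read and at 0 of 5 exonic clusters. The bases of *Dnmt3a* cluster 2 and *Dnmt3l* cluster 2 were not read here. Without the pair were *Dnmt3a* cluster 5 (GG in E14), which lies in coding sequence, *Uhrf1* cluster 1 (AA) and *Uhrf1* cluster 2 in E14 (CC).

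The 5 exonic clusters had GA, GG, GA, GG and GT at −1 and +1 in E14, in the order *Dnmt1* clusters 2 to 4, *Dnmt3a* cluster 6 and *Uhrf1* cluster 4, so each had G at −1. Of all clusters read in E14, G stood at −1 in 72.1% of the exonic and 14.3% of the promoter clusters. GG was the pair at 18.1% and 5.14% of them. The sequences at both 3′ UTR clusters, from GENCODE transcripts with −1 and +1 in capitals, show this G before the start.
Dnmt3a, cluster 6, chr12:3907745-3907773, plus strand: taagggacatgggGGcaaactgaagtagt
Uhrf1, cluster 4, chr17:56323182-56323210, plus strand: cagaattctgaggGTttctgtattatggg

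RefSeq promoter windows of 300 bases were matched for all 5 genes and numbered 12, of which 5 held at least 1 dominant TSS in E14. The base composition of those 5 covered a wide range. GC content was 76.0% at *Dnmt3b*, 74.0% at the short-isoform promoter of *Dnmt3a*, 69.7% at *Dnmt1*, 68.3% at the downstream *Uhrf1* promoter and 62.7% at *Dnmt3l*, against a median of 52.7% over all 32817 windows. In the same 5 windows the ratio of observed to expected CpG was 0.959 at the downstream *Uhrf1* promoter, 0.91 at *Dnmt1* and 0.694 at *Dnmt3b*. It was 0.468 at the short-isoform promoter of *Dnmt3a*. These 4 ratios lay above the median of 0.383, and that of *Dnmt3l*, 0.219, lay below it.

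Windows without a dominant TSS differed among themselves as well. The upstream *Dnmt1* window at the start of Dnmt1-202 had a CpG ratio of 0.101 and the *Dnmt3l* windows at starts without a cluster had 0.272 and 0.114. In contrast, both windows at the annotated long-isoform starts of *Dnmt3a* had ratios of 0.964 and 1.06, with 82.3% and 81.0% GC, although the cluster nearest to them lay further upstream. The upstream *Uhrf1* window had a ratio of 0.472 and 58.3% GC. It overlapped *Uhrf1* cluster 1 but ended before the dominant TSS of that cluster.

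Promoter motifs were searched on both strands as fixed letters, where a match is a description of the sequence and not a bound site. The windows set beside them were not matched for GC content, with a median of 52.7%, or for holding a cluster. Among the 12 windows of the 5 genes, the 2 at the long-isoform starts of *Dnmt3a* overlap each other. The GC box GGGCGG was present in 9 of 12 windows, including the 5 with a dominant TSS, against 35.6% of all windows, and the TATA box TATAAA in none of the 12, against 13.6%. CCAAT was present in 4 of 12 windows, all at *Dnmt1* and *Uhrf1*, against 37.4%, and the E-box CACGTG in 2 of 12, those of *Dnmt3l* and of the short isoform of *Dnmt3a*, against 7.15%. The E2F letters TTTGGCGC or TTTCGCGC were in 2 of 12, at *Dnmt1* and *Uhrf1*, against 0.814%. E2F factors drive genes of the S phase, when maintenance methylation takes place. The NRF1 letters CGCATGCG were in 3 of 12, namely both *Dnmt1* windows near the somatic start and the downstream *Uhrf1* window, against 1.86%. NRF1 is an activator of many housekeeping promoters. The windows of *Dnmt3a*, *Dnmt3b* and *Dnmt3l* held none of the CCAAT, E2F and NRF1 letters.

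The E2F letters nearest to a dominant TSS are shown for both genes, in capitals and on the strand of the gene. At *Dnmt1* they appear as the reverse complement and begin 4 bp downstream of the dominant TSS, and a second match begins 256 bp downstream. At *Uhrf1* they begin 141 bp upstream of the E14 dominant TSS of cluster 2. The NRF1 letters begin 103 bp upstream and 238 bp downstream of the dominant TSS at *Dnmt1* and 101 bp upstream of that of cluster 2 at *Uhrf1*, and overlap no E2F match.
Dnmt1, E2F letters, chr9:20952824-20952853, minus strand: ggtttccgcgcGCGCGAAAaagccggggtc
Uhrf1, E2F letters, chr17:56304117-56304146, plus strand: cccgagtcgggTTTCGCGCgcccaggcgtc

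Other genes of the DNA methylation pathway were taken as a list of 19 genes, all matched by symbol. A promoter cluster was present in each line at 18 of them, the exception being *Dnmt3c*, a rodent de novo enzyme known from male germ cells. Of these 18 genes, 7 had an exonic and 6 an intronic cluster in E14, beside 13.3% and 11.7% of all coding genes with a promoter cluster. Of their 73 clusters found in all lines, the dominant TSS differed from E14 in at least 1 clone at 26 (35.6%, beside 33.7% of all clusters) and took the same new position in both clones at 5 (6.85%, beside 8.47%). At *Nsd1*, which encodes a methyltransferase for lysine 36 of histone H3, 12 clusters were found in E14 and A1 and 13 in C7. The cluster found only in C7, at 55314185 on chromosome 13, is exonic and 1 bp wide. *Nsd1* was the only gene of the list whose number of clusters differed between lines. Over all coding genes with a promoter cluster in E14 that share was 4.05%.

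The 5 clusters with a common new position lay at 4 genes. At *Cdca7l*, a paralogue of the chromatin remodelling partner *Cdca7*, the dominant TSS of a promoter cluster was at 117843497 on chromosome 12 in E14 and at 117843502 in the clones. *Usp7*, which encodes a deubiquitinase that binds DNMT1 and UHRF1, had 2 intronic clusters on chromosome 16 with dominant TSSs at 8701116 and 8784253 in E14 and at 8701117 and 8784248 in the clones. At *Setd2*, the gene of the main enzyme for trimethylation of lysine 36, an intronic cluster on chromosome 9 had the dominant TSS at 110536068 in E14 and 1 bp away, at 110536067, in the clones. The *Setd2* cluster and the *Usp7* cluster at 8701116 are only 2 bp wide. In a cluster of 2 bp, clones that both differ from E14 must share a position, so their agreement there carries no information. For an exonic *Nsd1* cluster on chromosome 13 the dominant TSS was at 55247945 in E14 and 21 bp away, at 55247924, in both clones.

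The targeted genes could be checked only for presence of clusters. *Pwwp2a* had a promoter cluster (chr11:43681990-43682032) with its dominant TSS at 43682027 and an intronic cluster (chr11:43688117-43688118) in all 3 lines, the clones included, and *Pwwp2b* had no cluster in any line. A promoter that is still transcribed does not show whether the protein is lost. Of 8 embryonic stem cell markers, 8 had a promoter cluster in each line. So did 2 of 4 primitive endoderm markers, 2 of 4 trophectoderm markers, 3 of 4 fibroblast markers and 3 of 4 neural markers, so presence of a cluster is a permissive measure and the part of other cells in these clusters was not tested.

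The gene with the cluster numbers most like each of the 5 was sought over the counts of promoter, exonic and intronic clusters in the 3 lines, 9 counts in all, with ties ordered by nearest gene length. *Rps6kb1* and *Fstl1* had the same counts as *Dnmt1*, among 23 genes that did. *Fdx1* and *Cdca8* had those of *Uhrf1*, among 69. *Prrc1* and *Gm20503* had those of *Dnmt3b*, among 572, and *Tbc1d25* and *Kcng1* those of *Dnmt3l*, among 1920. No gene had the counts of *Dnmt3a*, and the nearest, *Myo18a* and *Spin1*, differed by 1 cluster in total.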

How the data were processed

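The authors mapped CAGE-seq reads of nuclear RNA from 3 E14, 2 DKO A1 and 3 DKO C7 libraries to mm10 with STAR 2.4.2a (the submitters' processing notes also name SAMtools 1.3 and bedtools 2.17.0), merged the libraries of each line, and called clusters, dominant TSSs and interquantile regions (quantiles 0.1 to 0.9) with CAGEr. The labels give the molecule as total RNA, while the extraction protocol describes nuclear RNA. The deposited table holds positions in mm10 with 0 non-zero scores, so there is no level, depth or replicate. Clusters of each line were read with Python 3.11.15 and NumPy 2.4.6 and drawn with Matplotlib 3.10.9.

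Genes and categories came from GENCODE release M21 (promoter within 500 bp of a same-strand transcript start, then exon, then intron). Clusters of different lines overlapping by at least 1 bp on a strand were joined. The functions were tested on simulated clusters at known positions. Alternatives were other windows, strand, overlap, shift and width rules. Bases were read from RefSeq promoter windows and GENCODE transcripts, which overlapped at the 5 genes by 1694 bases of which 0 differed.

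Named were the 5 genes in full, pathway genes with a cluster not found in all lines or with the same new dominant TSS in both clones, the targeted genes, and up to 2 genes with the most similar cluster counts per member. The members and all lists were chosen with earlier results of these data known.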

Additional observations from a re-analysis of the deposited data

How the results depend on the processing

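No paired analysis was possible because the libraries of each line had been merged before the clusters were deposited, and for the same reason no replicate could be left out. Of 52 values of totals, comparisons and main promoters under the alternatives, 43 stayed within 1.5 times the reported value. The 9 others were the following. Among clusters at least 3 bp wide between quantiles, 0 were missing from a line instead of 1, since *Dnmt3a* cluster 5 is 2 bp wide. A dominant TSS that differed in both clones was counted at 2 of 18 clusters instead of 4, beside 11.1% of all clusters. At *Dnmt1* cluster 3 and *Dnmt3b* cluster 3 it differed in 1 clone only. When both clones had to share the new position the count was also 2, beside 8.47%. A width that differed in both clones in the same direction was counted at 1 instead of 4, beside 16.4%, and the other widths differed in 1 clone only. Measured over the whole cluster, the width was 105 bp in each line at *Dnmt1* and 140 bp in each line at *Uhrf1*. At *Uhrf1* only the values of A1 and C7 were more than 1.5 times the reported width. By this measure the *Uhrf1* cluster was not narrower in the clones than in E14. Of 135 values for single genes, 129 stayed within 1.5 times; the others were the internal clusters of *Dnmt3a*, 1 when starts up to 1000 bp away counted, and the clusters of *Dnmt3l* with both strands counted, 6 in E14 and 5 in each clone. Clusters without levels do not show how much a start was used, and a cluster missing from a line may lie below the calling limit there, which positions do not give. No shift of a dominant TSS has an error estimate, neither those of 1 or 2 bp in narrow clusters nor those of 11, 14 and 16 bp. At *Dnmt1* cluster 3, *Dnmt3b* cluster 3 and *Dnmt3a* cluster 2, the 2 positions were the first and last base of the cluster. *Dnmt3a* cluster 2, where both clones shared the new position, is only 3 bp wide.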
